A study of Mus musculus with 8 samples.

Results

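The genes described here encode the core of the TGF-beta pathway in B cells: the ligand Tgfb1, the receptors Tgfbr1 and Tgfbr2, the signalling SMADs Smad2, Smad3 and Smad4, the inhibitory Smad7, and the nuclear corepressors Ski, Skil and Tgif1. They were taken by name, as every probe set whose only gene symbol in the platform annotation is one of these 10. This gave 23 probe sets of 45037 on the array and 10 genes of 18193 named ones. The samples were germinal centre B cells (B220+CD38-CD95+) of C57BL/6 mice, sorted from lymph nodes on day 12 of a response to NP-KLH with alum, injected subcutaneously. NP-KLH is a hapten on a carrier protein. The groups were 4 arrays labelled dark zone and 4 labelled light zone, 1 Affymetrix 3' expression array a sample. The titles number biological replicates, but the labels give no age and no number of mice per sample.

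Germinal centres are the sites in lymph nodes where B cells divide and mutate their antibody genes, classically in the dark zone, and are selected with the help of antigen and T cells, classically in the light zone. TGF-beta binds the type II receptor, encoded by Tgfbr2, which then phosphorylates the type I receptor, encoded by Tgfbr1. The type I receptor phosphorylates SMAD2 and SMAD3, which join SMAD4 and enter the nucleus, while SMAD7 blocks the receptor and SKI, SnoN (the product of Skil) and TGIF1 repress transcription at SMAD complexes. In B cells TGF-beta is best known for restraining growth and for directing class switching to IgA.

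The gate wording of the labels is opposite to the usual one, with CXCR4 high and CD83 low in the light zone, and the mRNA followed the zone titles instead. Cxcr4 averaged 10.61 ± 0.12 in dark zone and 9.65 ± 0.07 in light zone arrays, and Cd83 10.53 ± 0.11 and 12.85 ± 0.04 (log2 intensity, SD, n = 4 each). Of the other gate genes, Fas (CD95) and Ptprc (B220) were bright in both zones and slightly lower in the dark zone, by -0.23 and -0.21. Groups were taken from the titles, so each direction is that of arrays by title. Over the tested genes, correlations were 0.995 to 0.997 within a zone and 0.974 to 0.980 between zones. Of 8 B cell and germinal centre markers all were above the filter on dim probe sets, as were 4 of 11 T cell, 4 of 11 stromal, 4 of 7 platelet, 5 of 13 myeloid and 5 of 6 plasma cell markers. The summed intensity of the T cell list was 258.2 to 263.8 in dark zone and 263.1 to 277.1 in light zone arrays, and that of the myeloid list 451.3 to 1181.8 and 342 to 405.9. Of the plasma cell list, Irf4 (-2.03) and Prdm1 (-1.37) were called lower in the dark zone and Jchain (0.15) higher. Prdm1 lay below the filter in every dark zone array, so it was tested only through its light zone level. The summed intensity of the plasma cell list was 11732.4 to 12276 in dark zone and 10766.4 to 12082.5 in light zone arrays. A lower level in a sorted sample cannot be told apart from fewer cells that express the gene.

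The receptor genes moved in opposite directions, so the stretches around their start sites are shown, with that of Tgif1, the member that fell most. Each runs from 250 bases before to 50 after a RefSeq transcript start on GRCm38.p6, and where a gene has several starts the most upstream one is shown. Capitals mark CAGAC, a short SMAD-binding element, and GGGCGG, a GC box, on either strand. The windows are chr4:47352972-47353271 on the plus strand for Tgfbr1, chr9:116175314-116175613 on the minus strand for Tgfbr2 and chr17:70853483-70853782 on the minus strand for Tgif1.
Tgfbr1: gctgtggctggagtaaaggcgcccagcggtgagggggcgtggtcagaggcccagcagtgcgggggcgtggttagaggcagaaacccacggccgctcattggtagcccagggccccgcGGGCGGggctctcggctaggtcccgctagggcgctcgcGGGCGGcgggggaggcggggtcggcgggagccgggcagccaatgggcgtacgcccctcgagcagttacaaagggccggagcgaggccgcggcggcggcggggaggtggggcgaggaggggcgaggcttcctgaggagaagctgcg
Tgfbr2: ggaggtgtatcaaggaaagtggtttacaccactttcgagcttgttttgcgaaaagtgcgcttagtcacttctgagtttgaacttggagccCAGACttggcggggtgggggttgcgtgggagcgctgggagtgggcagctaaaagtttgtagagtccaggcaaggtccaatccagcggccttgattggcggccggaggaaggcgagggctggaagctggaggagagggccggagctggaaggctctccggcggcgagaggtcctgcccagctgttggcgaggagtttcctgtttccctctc
Tgif1: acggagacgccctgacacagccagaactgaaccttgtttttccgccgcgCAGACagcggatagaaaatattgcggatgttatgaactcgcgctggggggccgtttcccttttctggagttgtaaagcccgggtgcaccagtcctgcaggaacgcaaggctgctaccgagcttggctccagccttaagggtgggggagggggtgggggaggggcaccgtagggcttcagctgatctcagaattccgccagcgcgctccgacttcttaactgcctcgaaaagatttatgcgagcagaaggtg

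The Tgfbr1 window held 2 GC boxes and 0 CAGAC elements. The windows of Tgfbr2 and Tgif1 each held 1 CAGAC and 0 GC boxes. Of all 32851 promoter windows of the same length, 49.6% hold CAGAC and 35.7% hold GGGCGG, so neither motif is rare. The longer palindrome GTCTAGAC (0.21% of windows) and TATAAA (13.6%) were in none of the 11 windows searched, which belong to 6 members. Windows of Smad2, Smad4, Smad7 and Skil were not searched, so nothing is known here of motifs in them. Member windows on 1 chromosome were left out, whereas the shares over all windows include that chromosome. The window of a second Tgfbr1 start held 1 CAGAC and 0 GC boxes, and the other 4 windows of Tgif1 held 0 to 2 CAGAC and 0 to 5 GC boxes. The single windows of Tgfb1, Smad3 and Ski held 6, 2 and 6 GC boxes and 0 CAGAC. A match is a description of these letters and says nothing of binding.

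Of the 10 genes, 5 passed the test between the zones (limma, Benjamini-Hochberg adjusted p under 0.05 over 10547 genes). Tgfbr1 rose in the dark zone, and Tgfb1, Tgfbr2, Skil and Tgif1 fell. The share among all tested genes was 43.9%, so a count of 5 in 10 is near the background. By direction, 1 of 10 was higher against 19.1% of all genes, and 4 of 10 were lower against 24.8%. A change of at least 1.5-fold was reached by 2 members, Tgfbr1 and Tgif1, against 10.1% of all genes. In 4 of the 10 the arrays of the zones did not overlap, against 41.3% of all genes. The median difference, dark zone minus light zone on the log2 scale throughout, was -0.12 over the members and -0.01 over all tested genes.

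**Figure D1:**
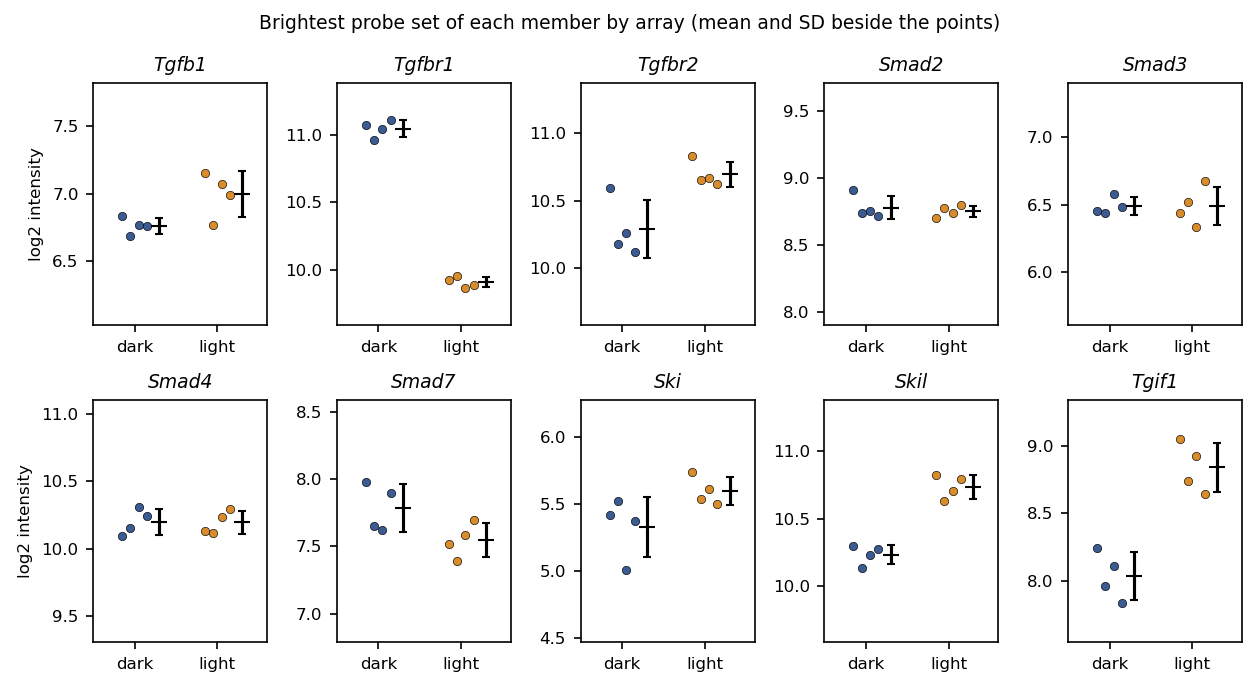
Each panel plots the log2 intensity of the brightest probe set of 1 gene in the 4 dark zone arrays (left) and the 4 light zone arrays (right), with the mean and SD beside the points and the same span on every y axis. Tgfbr1 lies at 10.96 to 11.11 in dark zone arrays and at 9.87 to 9.95 in light zone arrays, while Smad2, Smad3 and Smad4 overlap.

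The ligand gene Tgfb1 was slightly lower in the dark zone. Its brightest probe set had 6.83, 6.69, 6.76 and 6.76 in dark zone arrays and 7.16, 6.76, 7.07 and 6.99 in light zone arrays (log2 intensity). The second light zone array lay among the dark zone ones, so the groups overlapped. The difference was -0.23 (standard error, SE, 0.08), which passed by limma (adjusted p = 0.036). This call rested on single arrays: it was lost without dark zone replicate 2, 3 or 4 or light zone replicate 1, 3 or 4 (adjusted p = 0.063 to 0.102). It was kept without dark zone replicate 1 (0.040) or light zone replicate 2 (0.0038). A dimmer probe set of Tgfb1 differed by 0.03 (95% interval -0.17 to 0.23), and averaging both gave -0.10 (adjusted p = 0.17).

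Tgfbr1, the type I receptor and the kinase that acts on SMAD2 and SMAD3, was the member with the largest difference. Its brightest probe set had 11.08, 10.96, 11.05 and 11.11 in dark zone arrays, against 9.92, 9.95, 9.87 and 9.89 in light zone arrays. All dark zone arrays lay more than the spread of either group above all light zone ones. Mean intensity was 2120.2 in dark zone and 960.4 in light zone arrays, a log2 difference of 1.14 (SE 0.06, limma adjusted p = 2.4e-08) or 2.21-fold. Only 83 of 10547 tested genes (0.787%) had a larger positive difference. A second, much dimmer probe set rose as well, with 5.77, 5.74, 5.50 and 5.37 in dark zone arrays and 4.37, 4.10, 4.50 and 4.40 in light zone arrays. Its difference was 1.25 (SE 0.11, adjusted p = 4.0e-06 in the fit over 22519 probe sets). Its light zone values were below the filter level of 4.80, so this probe set was tested only through its dark zone level. The third probe set stayed below the filter in both zones and differed by 0.21 (SE 0.07), untested.

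Tgfbr2, the type II receptor that binds the ligand, fell in the dark zone by its brightest probe set. It had 10.59, 10.18, 10.26 and 10.11 in dark zone arrays and 10.83, 10.66, 10.67 and 10.62 in light zone arrays. Dark zone replicate 1 came within 0.03 of the lowest light zone array, so the groups were only just apart. The difference was -0.41 (SE 0.10, limma adjusted p = 0.0053), or 1.33-fold lower, and it passed without any single array (adjusted p up to 0.018). A second probe set, far dimmer, differed by 0.08 (95% interval -0.12 to 0.29, adjusted p = 0.51), and the third was below the filter at -0.04. Averaging the 3 probe sets gave -0.12 and no call (adjusted p = 0.13), so the fall of Tgfbr2 rests on 1 probe set.

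**Figure D2:**
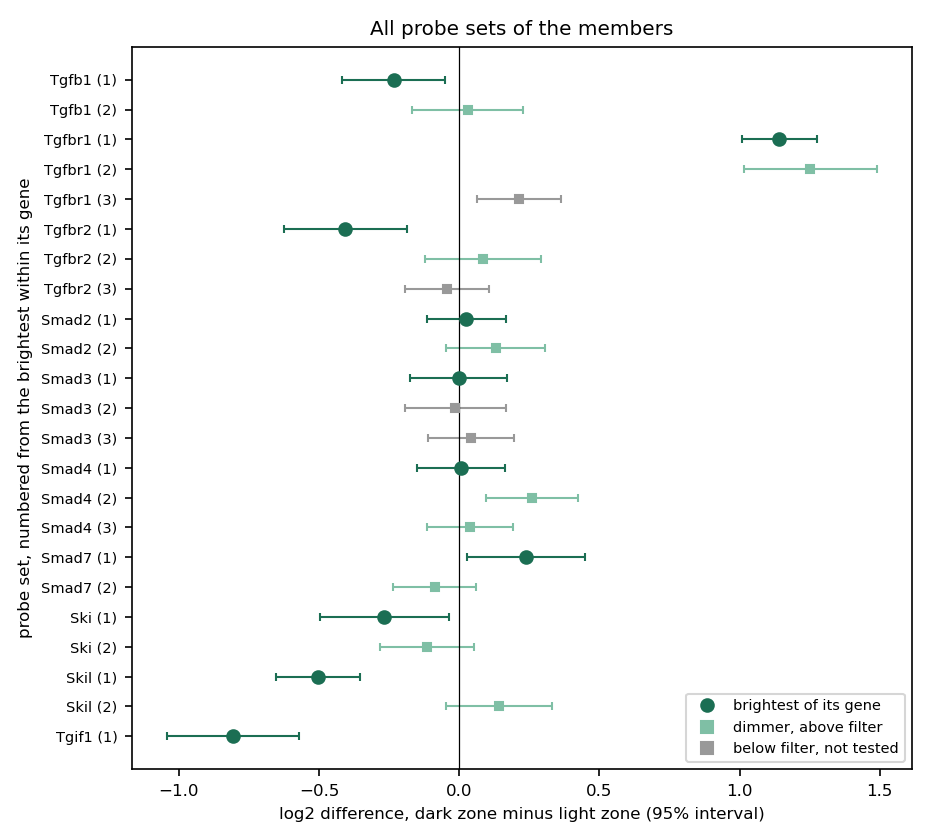
Points are the log2 difference, dark zone minus light zone, of each of the 23 member probe sets, with 95% intervals from limma, numbered within a gene from the brightest. The 2 tested probe sets of Tgfbr1 lie at 1.14 and 1.25, whereas the dimmer sets of Tgfb1, Tgfbr2 and Skil lie near 0 or on the other side of it from the brightest.

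The receptor-activated SMAD genes differed little. Smad2 had 8.91, 8.74, 8.75 and 8.72 in dark zone arrays and 8.70, 8.78, 8.74 and 8.80 in light zone arrays, a difference of 0.03 with a 95% interval of -0.11 to 0.16 (limma adjusted p = 0.77). Its second probe set was at 0.13 (adjusted p = 0.23). Smad3 had 6.45, 6.44, 6.58 and 6.48 in dark zone arrays and 6.44, 6.52, 6.34 and 6.67 in light zone arrays. Its difference was -0.0022 (95% interval -0.17 to 0.16, adjusted p = 0.98), and both of its other probe sets were below the filter. The Smad2 interval reaches at most a 1.117-fold change in either direction, and the Smad3 interval 1.124-fold.

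Smad4, the partner that both pathway branches share, gave different answers by probe set. The brightest had 10.10, 10.15, 10.31 and 10.24 in dark zone arrays and 10.13, 10.12, 10.24 and 10.30 in light zone arrays, a difference of 0.0044 (95% interval -0.15 to 0.15, limma adjusted p = 0.96). The second, at 9.39, 9.46, 9.50 and 9.61 in dark zone arrays and 9.36, 9.27, 9.20 and 9.10 in light zone arrays, did not overlap. It rose by 0.26 (SE 0.08, adjusted p = 0.017 over all probe sets). The third differed by 0.04 (adjusted p = 0.70).

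Smad7, which binds the type I receptor and blocks SMAD activation, did not pass but came near the threshold. It had 7.98, 7.65, 7.62 and 7.90 in dark zone arrays and 7.52, 7.39, 7.58 and 7.70 in light zone arrays, overlapping in the middle. The difference was 0.24 (SE 0.09, limma adjusted p = 0.057). It passed without dark zone replicate 2 or 3 or light zone replicate 4 (adjusted p = 0.030 to 0.042). A dimmer probe set, of a type that can bind related transcripts, was at -0.09 (adjusted p = 0.33), and averaging both gave 0.08 (adjusted p = 0.35).

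The corepressor genes were all at lower mean levels in the dark zone, and 2 of the 3 passed. Tgif1, a homeodomain corepressor of SMAD complexes, had 8.24, 7.96, 8.11 and 7.83 in dark zone arrays and 9.05, 8.74, 8.93 and 8.64 in light zone arrays. The groups did not overlap, and the difference was -0.81 (SE 0.10, limma adjusted p = 6.4e-05), or 1.75-fold lower. It has 1 probe set. Skil had 10.29, 10.13, 10.23 and 10.27 in dark zone arrays, against 10.82, 10.63, 10.70 and 10.79 in light zone arrays. These groups were also apart, with a difference of -0.50 (SE 0.07, limma adjusted p = 6.5e-05), or 1.42-fold lower. A second Skil probe set, just above the filter, was at 0.14 (95% interval -0.05 to 0.33, adjusted p = 0.21), and averaging both gave -0.18 (adjusted p = 0.041).

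Ski was dim in both zones. It had 5.41, 5.52, 5.01 and 5.37 in dark zone arrays and 5.74, 5.54, 5.61 and 5.50 in light zone arrays, with the second dark zone array among the light zone ones. The difference was -0.27 (SE 0.10, limma adjusted p = 0.052), and it missed the threshold in 7 of the 8 fits without a single array. It was -0.16 (adjusted p = 0.12) without dark zone replicate 3 and -0.33 (adjusted p = 0.025), the 1 that passed, without dark zone replicate 2. Its other probe set was at -0.11 (adjusted p = 0.26).

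Over all 19 member probe sets above the filter, 7 passed, against 40.8% of 22519 probe sets. In 6 the arrays of the zones did not overlap, against 39.1% of them. Called higher were 3, against 19.3%, and called lower 4, against 21.4%. The 3 that were higher in the dark zone were both tested sets of Tgfbr1 and the second of Smad4. The 4 that were lower were the brightest of Tgfb1, Tgfbr2 and Skil and the only one of Tgif1. Of the 9 tested probe sets that are not the brightest of their gene, 2 passed, the second of Tgfbr1 and the second of Smad4. That of Tgfbr1 was tested only through its dark zone level.

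**Figure D3:**
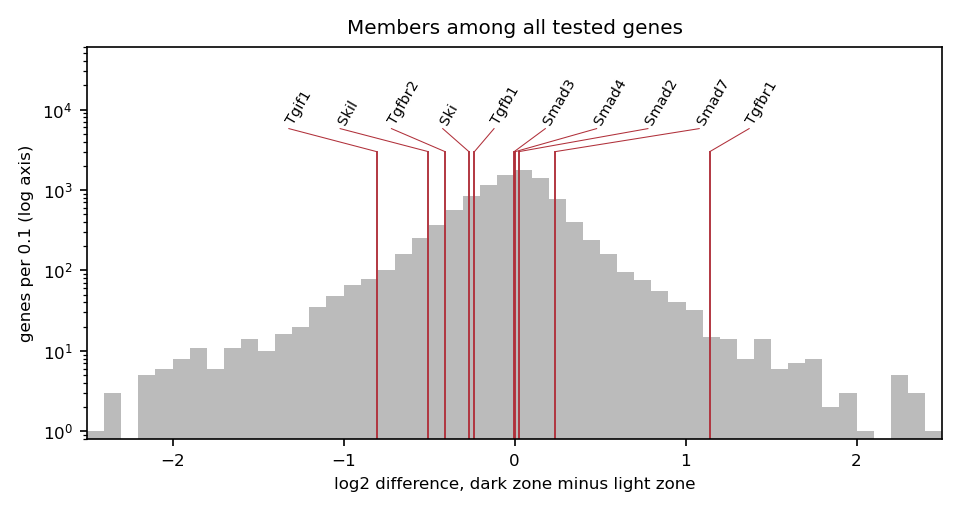
The histogram counts the 10547 tested genes by log2 difference, dark zone minus light zone, in steps of 0.1 on a log count axis, and red lines mark the 10 members (the most extreme genes lie outside the plot). Tgfbr1 at 1.14 and Tgif1 at -0.81 lie in the tails and Smad2, Smad3 and Smad4 at the centre.

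The tested genes whose profile over the 8 arrays, each centred on its own mean, lay closest to that of Tgfbr1 were Neil1, a DNA glycosylase of base excision repair, Bpgm, a bisphosphoglycerate mutase, and Fam20b, a xylose kinase. Their root mean square distances were 0.05, 0.06 and 0.08 on the log2 scale, and their differences 1.09, 1.12 and 1.05. Those closest to Tgif1 were the kinase gene Lrrk2 (distance 0.07, difference -0.76), the B cell scaffold gene Bank1 (0.07, -0.71) and Pxdc1 (0.08, -0.79).

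Other genes of the pathway were read from 6 lists holding 135 genes besides the members, of which 98 were tested. The test was passed by 24 higher and 21 lower in the dark zone, and 53 did not pass. That is 45.9%, against 43.9% of all genes, with a median difference of 0.02. Of all tested genes 19.1% were higher and 24.8% lower, the shares to set beside the count of each list below.

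Of 16 genes that store or activate latent TGF-beta, 15 were found on the array by symbol, 8 of them were too dim, 7 were tested and 2 passed. Nrros, which tethers latent TGF-beta on myeloid cells, fell by 0.99 (SE 0.09, limma adjusted p = 4.5e-06). Itgb3, the beta subunit of the integrin with Itgav that binds the latent complex, rose by 1.28 (SE 0.07, adjusted p = 4.9e-08), or 0.74 with its probe sets averaged. Itgb3 is also a platelet gene, and the platelet genes Pf4 and Ppbp were below the filter, at 4.20 and 3.33 in dark zone and 4.20 and 3.28 in light zone arrays. The summed intensity of the 6 platelet markers other than Itgb3 was 161.7 to 175.7 in dark zone and 160.4 to 174.7 in light zone arrays. The 3 of them above the filter, Itga2b (0.07), Gp9 (-0.03) and Gp1bb (0.10), were not called (limma adjusted p = 0.51, 0.84 and 0.33). Itgav was at -0.12 (adjusted p = 0.14) and Itgb5 at 0.08 (0.48). The genes of the other ligands, Tgfb2 and Tgfb3, were too dim to test, as were Itgb6 and Itgb8.

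Of 17 genes of activin and BMP receptors and their SMADs, 8 were tested. The activin type I receptor gene Acvr1b (-0.39, SE 0.07), Smad1 of the BMP branch (-0.31, SE 0.07) and the type II receptor gene Acvr2a (-0.27, SE 0.07) fell in the dark zone. Amhr2, the receptor of anti-Müllerian hormone, was called higher at 0.28 (SE 0.09, limma adjusted p = 0.022). Its mean over both zones, 4.86, was just above the filter level of 4.80. The light zone mean of 4.72 was below that level, so Amhr2 was tested only through its dark zone level. Its call was lost without light zone replicate 2 or 4. With probe sets averaged, Acvr1b was at -0.13 (adjusted p = 0.045), and Acvr2a and Amhr2 were too dim to test. The remaining 4 did not pass by the brightest probe set, and the inhibitory Smad6 was too dim. Of those 4, averaging called Smad5 (0.25, limma adjusted p = 0.012) and Bmpr1a (0.20, 0.019) higher. The averaged list then had 2 higher and 2 lower of 5 tested.

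Among 26 tested regulators of the receptors and SMADs, 6 rose in the dark zone, 5 fell and 15 did not pass, with a median of -0.03. The deubiquitinase gene Usp15 rose by 0.93 (SE 0.11), the phosphatase gene Ctdsp2 by 0.87 (SE 0.06) and Trim33, a ubiquitin ligase that acts on SMAD4, by 0.63 (SE 0.09). The kinase gene Hipk2 fell by 0.84 (SE 0.09). The calls of Usp15 and Trim33 were lost when all probe sets of the gene were averaged (0.13, adjusted p = 0.079, and 0.04, adjusted p = 0.70), and Hipk2 was then at -0.25. The call of Axin1 (0.29) was lost without light zone replicate 2 and with averaging (0.19, adjusted p = 0.053). Smurf1 and Smurf2, ligases that direct receptor degradation with SMAD7, were at -0.03 and -0.14 and did not pass. Averaging turned Smurf2 to 0.25 with a call (adjusted p = 0.0069). Over the list averaging lost 4 calls and gained 4.

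Of 22 tested partners of SMADs in the nucleus, 6 rose and 7 fell in the dark zone, with a median of -0.02. That is 59.1% called, against 43.9% of all genes. The zinc finger repressor gene Zeb2 fell by 1.55 (SE 0.12), Runx3 fell by 1.32 (SE 0.10) and the AP-1 gene Junb fell by 1.204 (SE 0.10). Runx3 acts with SMADs in class switching to IgA. Ctcf rose by 0.56 (SE 0.06), and Tgif2, the relative of Tgif1, fell by 0.49 (SE 0.08). The calls of Crebbp, Runx1 and Med15, with differences of 0.16, 0.30 and -0.16, were lost without any of 4 to 7 single arrays, and that of E2f5 (-0.22) without dark zone replicate 2. With probe sets averaged, E2f5 (-0.09, adjusted p = 0.17) and Med15 (-0.08, adjusted p = 0.22) did not pass and Zeb2 was too dim, which left 4 lower. Runx3 was then at -0.69 and Tgif2 at -0.30, both still called.

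Genes known to respond to TGF-beta in various cell types did not move one way. The list was not divided by the direction of each gene's known response, and pathway activity was not tested. Of 20 tested, 4 rose and 7 fell in the dark zone, with a median of -0.06. That is 55% called, against 43.9% of all genes. Runx3 and Junb, given above, are on this list too and count among the 7. Bhlhe40 fell by 2.19 (SE 0.15), Myc fell by 2.10 (SE 0.13), Id2 fell by 1.27 (SE 0.13) and Klf10, a TGF-beta-inducible zinc finger gene, fell by 1.10 (SE 0.13). Id2 was at -0.79 with its probe sets averaged. Rgcc rose by 2.92 (SE 0.11), Gadd45b by 0.97 (SE 0.10) and the BIM gene Bcl2l11 by 0.92 (SE 0.06). The SMAD feedback gene Pmepa1 was at -0.25 (SE 0.12, limma adjusted p = 0.11) and Igha, the IgA heavy chain gene, at 0.09 (SE 0.10, adjusted p = 0.50).

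**Figure D4:**
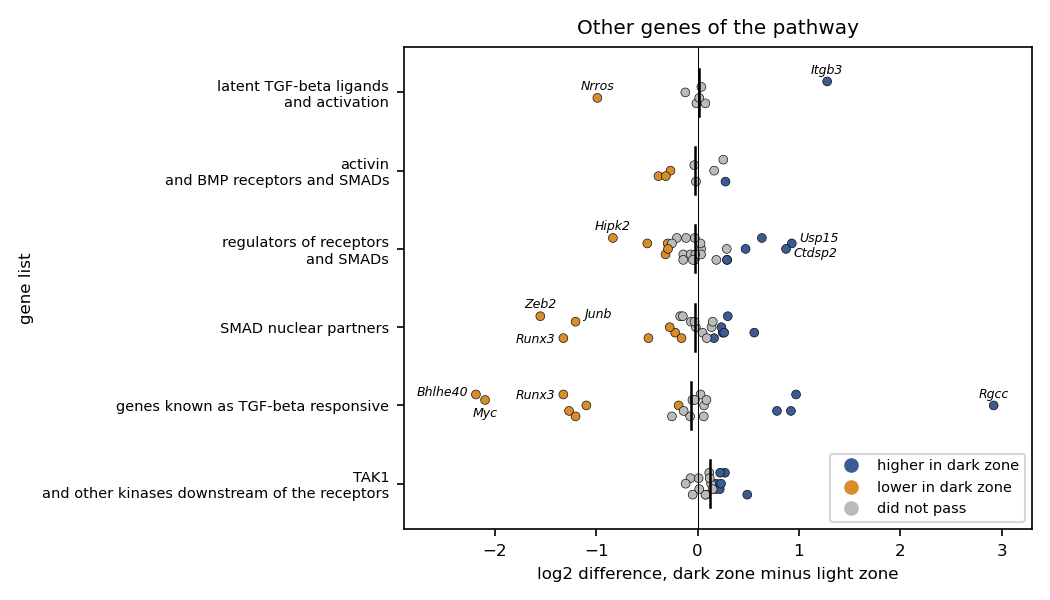
Each point is the log2 difference, dark zone minus light zone, of 1 tested gene in a list, coloured by its call at adjusted p under 0.05, and black bars are list medians; vertical offsets within a list only separate points. The list medians lie between -0.06 and 0.13, with single genes far out on both sides.

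Tgfbi, an extracellular matrix gene that TGF-beta induces and that macrophages express, rose by 0.78 (SE 0.23, limma adjusted p = 0.015), and its arrays differed widely. It had 4.45, 5.23, 5.23 and 5.96 in dark zone arrays and 4.50, 4.47, 4.34 and 4.43 in light zone arrays. Dark zone replicate 1 was level with the light zone. That array and every light zone array lay below the filter on dim probe sets. Tgfbi was tested only because the other dark zone arrays raised its mean over both zones to 4.83, just above the filter. The myeloid marker Lyz2 had 7.0025, 8.85, 8.86 and 9.69 in dark zone arrays and 5.43, 5.35, 5.24 and 6.48 in light zone arrays. The dark zone arrays ran in the same order for both genes, with replicates 2 and 3 nearly level. The light zone arrays did not, as replicate 4 was highest for Lyz2 but replicate 1 for Tgfbi. Of the 13 myeloid markers, Lyz2 and Csf1r (0.40) were called higher and Cd68 (-0.40) was called lower. Adgre1 (0.07) and Siglec1 (0.11) were not called (limma adjusted p = 0.43 and 0.21). The other markers, C1qa, C1qb, C1qc, Itgam, Mertk, Fcgr1, Cd14 and Marco, were below the filter. The part of other cells in the rise of Tgfbi was not tested. With its probe sets averaged Tgfbi was too dim to test.

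**Figure D5:**
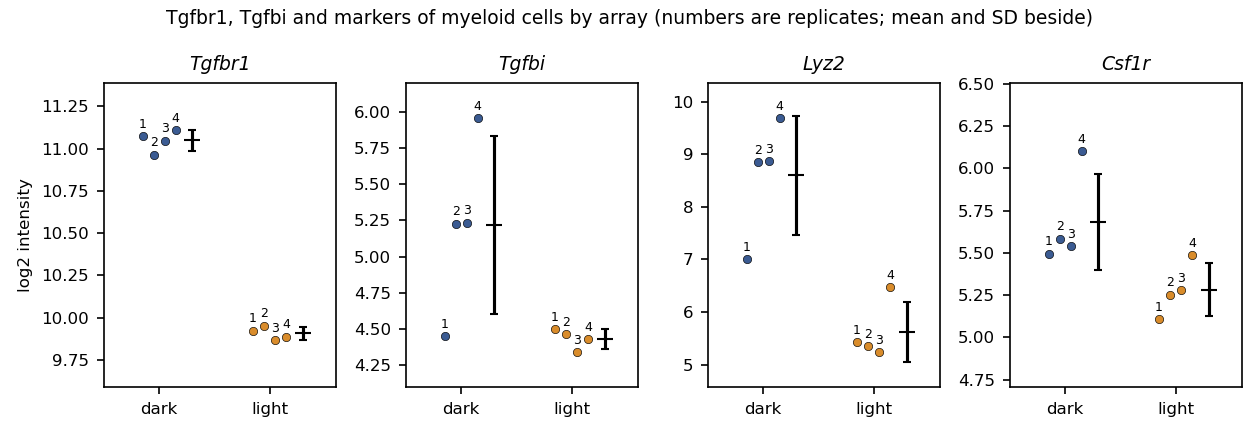
Log2 intensity of Tgfbr1, Tgfbi and the myeloid markers Lyz2 and Csf1r in each dark zone array (left) and light zone array (right), numbered by replicate, with mean and SD beside the points; y axes differ in span. Tgfbi and Lyz2 are lowest in dark zone replicate 1 and highest in replicate 4 within the dark zone. Within the light zone Lyz2 is highest in replicate 4 and Tgfbi in replicate 1. The myeloid marker Cd68, which was called lower, is not plotted. Tgfbr1 lies at 10.96 to 11.11 in dark zone arrays and 9.87 to 9.95 in light zone arrays.

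The genes of kinases, adaptors and other proteins that carry TGF-beta signals beside the SMADs, around TAK1, had small differences. Their calls depended on the probe set. By the brightest probe set, of 18 tested, 6 rose in the dark zone, 0 fell and 12 did not pass by limma, with a median of 0.13. The 6 are 33.3% of the list, against 19.1% of all genes called higher, and 24.8% of all genes were called lower. By unadjusted p under 0.05 the count lower was also 0. Akt1 led with 0.49 (SE 0.07, limma adjusted p = 2.3e-04), followed by Map2k3 (0.27), Rhoa (0.23) and Pik3r1 (0.22). Map3k7, which encodes TAK1, was at 0.08 (SE 0.06, adjusted p = 0.30). With probe sets averaged, 10 of 17 passed, all higher, with Map3k7 (0.16, adjusted p = 0.039), Mapk9 (0.25, 0.020), Rock1 (0.18, 0.0094) and Xiap (0.13, 0.039) added. Over all genes, averaging called 2149 of 9613 higher and 2360 lower. Besides Akt1, the 5 calls depended on single arrays. They were lost without any 1 of 6 arrays for Rhoa, Pik3r1 and Map2k6, of 4 for Map2k3, and of 2, light zone replicates 3 and 4, for Tab2.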

How the data were processed

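Gene expression was measured on 8 Affymetrix arrays, grouped by the zone in their titles. The deposited table holds 1 intensity per probe set and array. RMA (background correction, quantile normalization and probe set summary) is named in the submitters' processing notes, and its version is not given in the sources used here. The design had assumed log2 values, but the deposited intensity is linear, so log2 was taken without a pseudocount. Array medians lay between intensities of 27.3 and 28.1, so zone differences in RNA content would not show here, and those of dim genes are compressed. Precision is limited by the 8 arrays.

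Of the probe sets, 34945 carry 1 gene symbol, 932 several and 9160 none, and 34741 were matched by gene ID to a reference table of GRCm38.p6, which changed 0 symbols. The brightest probe set stood for each gene. Genes entered the test where its mean log2 value was at or above the median over probe sets, equal to 27.8 in intensity (10547 of 18193 genes). The same filter kept 22519 probe sets for a second fit. Zones were compared in R 4.3.3 by limma 3.58.1 (two-sided moderated test, Benjamini-Hochberg). The fit was tested on simulated data. Promoter windows come from RefSeq. Probe sequences and transcript-level annotation were not used here.

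The members and lists were chosen with earlier results of these data known. Named genes are all members, up to 4 genes with the largest absolute differences in each list, the gate genes, the 3 closest profiles of the called members with the largest positive and largest negative difference, and the brightest markers of other cell types. Other list genes named in the text were chosen after their values were seen. Alternatives varied the filter, the probe set of a gene, the centring, the variance model, array weights, the replicate block, the threshold and the arrays. Python 3.11.15 and matplotlib 3.10.9 drew the figures.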

Additional observations from a re-analysis of the deposited data

How the results depend on the processing

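Tgfbr1, Skil and Tgif1 kept their direction and their call in all 16 alternatives, with differences of 1.12 to 1.17, -0.54 to -0.47 and -0.87 to -0.74 when single arrays were left out. Averaging the probe sets moved Tgfbr1 to 0.87 and Skil to -0.18 (adjusted p = 0.041). Tgfbr2 lost its call in 1 of 16, with averaged probe sets (-0.12), where 3 member genes passed and 2 of them were lower, against 5 and 4. Tgfb1 lost its call in 8 of 15 (it was too dim for the stricter filter): averaged probe sets, a threshold of 0.01 and 6 of the single arrays left out (-0.312 to -0.1811 over all 8). The count of members higher in the dark zone became 2 against 1, through Smad7, with a filter at the 75th percentile (adjusted p = 0.041), a trended and robust variance model (0.047), or the replicate block (0.030), and was 1 to 2 without single arrays. Ski passed with median centring (0.032), the variance model (0.047), array weights (0.040) and the block (0.045). Values near 0 changed sign: Smad3 to 0.0082 with averaged probe sets and 0.0292 with array weights, and Smad4 to -0.0189 with median centring. Without single arrays Smad2 ranged from -0.0174 to 0.0457, Smad3 from -0.0541 to 0.059 and Smad4 from -0.0324 to 0.0391. Averaging called 28 pathway genes higher and 17 lower of 87 still tested, against 24 and 21 of 98. Over all genes it called 2149 higher and 2360 lower of 9613, against 2015 and 2614 of 10547. Pathway genes lower in the dark zone numbered 10 with the stricter filter, which left 63 of 98 to test, against 21. At a threshold of 0.01, 14 pathway genes against 24, and 1316 of all genes against 2015, were higher. The causes were not tested, beyond the fewer genes or stricter threshold.

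Zones share replicate numbers, but nothing in the labels says that a number marks a shared mouse. Deviations of same-numbered arrays from their zone means correlated at 0.06 to 0.243 over the tested genes, and 7 of 8 arrays correlated best with their own number, which is only a hint of pairing. With the replicate block 7 member genes passed against 5, and 8 member probe sets against 7. It called 45 pathway genes, the same count as without it, and 4787 of all genes against 4629.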

Other observations

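In several pathway genes the probe sets of 1 gene disagreed. For Hipk2, the 3 brightest of 8 probe sets were at -0.84, -0.44 and -0.61 (dark zone minus light zone, log2), while the fifth was at 0.20 and missed the threshold (limma adjusted p = 0.063 over all probe sets). For Trim33, the brightest was at 0.63 and the other 2 at -0.22 (adjusted p = 0.081) and -0.30 (adjusted p = 0.038), so called probe sets of this gene stood on opposite sides. For Pik3r1 the brightest 2 of 4 were at 0.22 and -0.32 and both passed (adjusted p = 0.044 and 0.033), with the others at 0.81 and 0.26. The 5 probe sets of Zeb2, in contrast, lay between -1.55 and -0.77, although 3 of them were below the filter, and the 2 of Rgcc were at 2.92 and 2.78.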
